A study of Danio rerio with 16 samples.

Results

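The cilia and flagella associated protein (cfap) genes of zebrafish were followed through bulk-seq, pseudo bulk-seq and single cell data of adult testes. Members were all rows whose RefSeq mRNA accession maps to a symbol starting with cfap, irrespective of their counts. Of 44 such symbols in the RefSeq annotation, 32 were found in at least 1 table, and all tables together held 17,610 accessions. The bulk-seq tables held 22 of the genes among 14,792 rows. The table of TCDD and control pseudo bulk-seq held 22 genes in 23 rows of 6,847, since cfap20 had an NM and an XM accession there. Cell cluster sheets listed 26 of the genes under 28 accessions. Both bulk-seq and pseudo bulk-seq covered 14 of the genes, 8 were found in bulk-seq but not in pseudo bulk-seq (cfap77, cfap96, cfap100, cfap119, cfap157, cfap206, cfap300 and cfap20dc), and 8 in pseudo bulk-seq but not in bulk-seq (cfap43, cfap65, cfap73, cfap90, cfap91, cfap92, cfap99 and cfap221). The 8 found only in pseudo bulk-seq had XM accessions alone there, while every cfap row of bulk-seq had an NM accession. Their absence from bulk-seq thus does not show that they were not expressed. In the cluster sheets, cfap68 and cfap210 came in addition. The other 12 symbols were not analysed here.

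Motile cilia and sperm tails are built on an axoneme, a ring of doublet microtubules around a central pair, which is bent by dynein motor arms. Cfap proteins are named for their presence in this structure and not for a shared ancestry. Some line the inside of the doublets, others belong to the central apparatus, to the bases of the radial spokes or to the tethers of the inner dynein arms, and a few act in the cytoplasm when dynein arms are assembled. In a testis, transcripts of axonemal genes are known to accumulate in late germ cells that form a flagellum.

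All fish were of the AB strain. At an age of 1 year, vehicle-treated fish gave intact testes (CI, n = 3) and, from the contralateral side, testes digested to a suspension (CD, n = 3). Dissociated testes of 1.5-year-old fish were measured by bulk-seq after exposure to TCDD (TB, n = 2) or vehicle (CB, n = 3), and by 10x scRNA-seq summed over cells, called pseudo bulk-seq (TP, n = 2, and CP, n = 3). TCDD is a dioxin that binds the aryl hydrocarbon receptor. Juveniles were bathed for 1 h, at 3 weeks and again at 7 weeks after fertilization, in TCDD at 50 pg/mL or in vehicle, with DMSO at 0.1% in both, and the labels give the TCDD dose for controls as well. By the study's methods, each suspension was divided between both assays, so that CB and CP, and TB and TP, are not independent fish. P-values measure the spread between these libraries.

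Levels are given in CPM, a row's count relative to the total count of its library, on the TMM scale. Fold changes are log2 values from edgeR's quasi-likelihood test with their standard errors (SE), and calls were made at 0.05 after adjustment over the whole table. Library totals were 7,968,350 to 29,144,951 counts for CD and CI, 4,828,801 to 36,172,885 for CB and TB, and 3,490,409 to 9,987,998 for CP and TP. All cfap rows passed the filter on low counts in every comparison. In the pseudo bulk-seq table no row had fewer than 30 counts in any library, so genes lost to that level in TP could not appear in it. The counts of the CB and TB table run in the reverse order of its accessions, and they were turned round before use: log2 CPM of CB then correlated with CD at r = 0.982 over 14,792 rows, against −0.944 as deposited. By its title this is the table of TB and CB, but its columns carry the prefix sc, which the labels use for the single cell samples, with a C or T and a digit. They were read as CB and TB from the title, and libraries are given by the digit, which was not used to pair them. The same column names recur in a pair of other deposited tables with other counts, and those tables were not used here. In the table of CP and CB among them, the counts of a pair of such columns added up to those of CI replicate 3. That library had 29,144,951 counts, against 7,968,350 and 8,308,248 in the other CI libraries. What this means for CI replicate 3 was not tested. Each result on CB or TB, and each difference between the assays, rests on this reading of the table, and if the columns held single cell libraries these results would not be of bulk-seq.

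In the cell cluster sheets, cfap transcripts were found in a larger share of cells in clusters 7 to 10 than in clusters 2 to 4. The deposited sheets give, for each of 10 clusters, a pair of the authors' shares of cells with a transcript, without replicates. Their columns name no sample or exposure, although the title they were deposited under names TCDD. By the paper's methods the samples were merged before clustering, but whether these shares cover control and TCDD cells together is not stated. The pair was read as the share in the cluster and that in all other cells. Read so, the share over all cells differed between sheets by a root mean square of 0.025 percentage points. It was 2.61 points without this reading. From the shares of 2,214 accessions listed in at least 5 sheets, clusters 7 to 10 were calculated to hold 27.0% of all cells. Clusters 7 to 10 were those with the highest shares of izumo1, a sperm surface protein needed for fusion with the egg (86.6%, 88.9%, 67.3% and 55.7%), and of the sperm protein ropn1l. The kinase transcript tssk6, which is made late in spermatid formation, was listed in 16.4% of cells of cluster 9 and in 57.0% of cluster 10. The meiotic recombinase dmc1 was highest in cluster 5 (93.1%) and cluster 6 (89.2%), and the clusters are called by number here. A sheet lists only transcripts that the authors' test retained, and the depth per cell is not in the sheets. How doublets were treated before these shares and the summed counts were made is not given in the sources used here.

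All 24 cfap rows of the sheet of cluster 7 had a higher share in the cluster than in the other cells, where 60.6% of all rows in that sheet did. In cluster 8 it was 27 of 27 rows (49.6% of all rows), in cluster 9 it was 25 of 26 (30.2%) and in cluster 10 it was 24 of 24 (24.2%). The exception in cluster 9 was cfap298. By contrast, 0 of 25 cfap rows were higher in each of clusters 2, 3 and 4 (44.3%, 48.5% and 29.9% of all rows), and 0 of 24 in cluster 5 (38.2%). In cluster 1 it was 5 of 24 rows (84.2%), and in cluster 6 it was 9 of 10 (56.1%). The median share of cells with a cfap transcript was 73.7% in cluster 7, 67.9% in cluster 8, 49.9% in cluster 9 and 45.15% in cluster 10. It was 5.0%, 3.7% and 3.1% in clusters 2, 3 and 4.

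**Figure D1:**
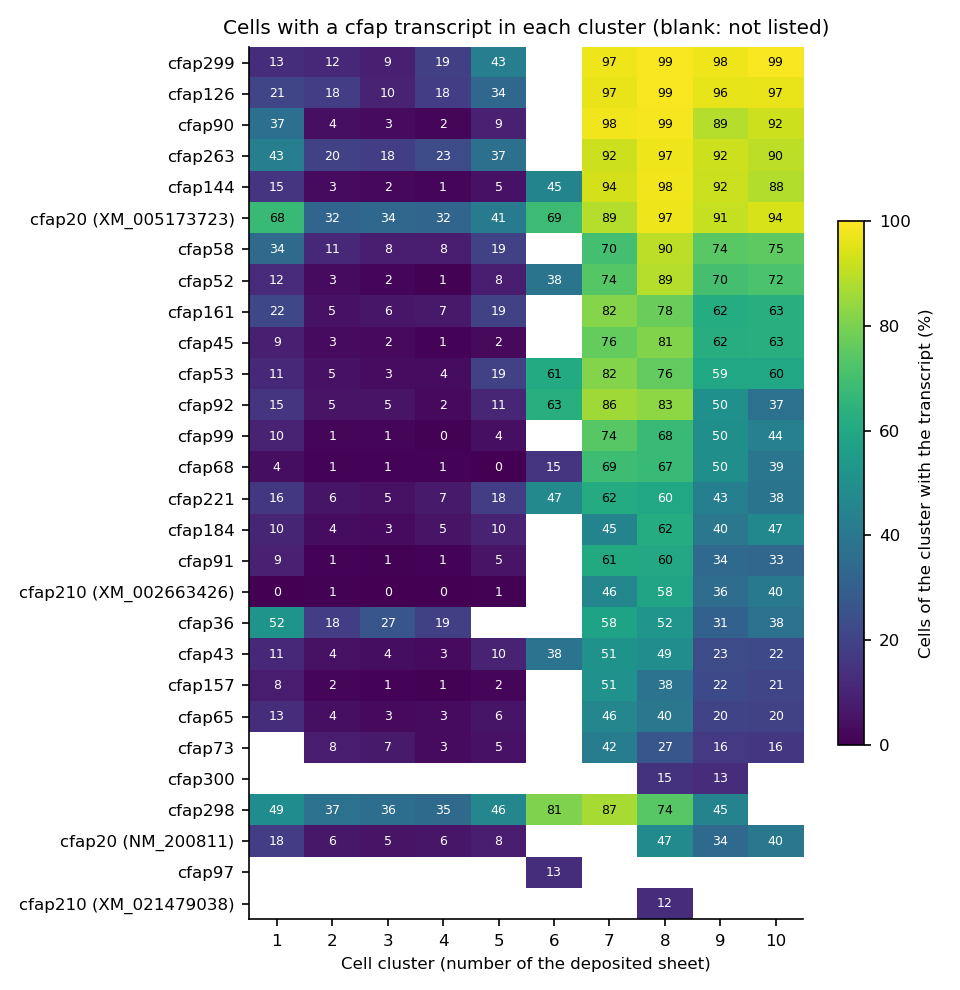
Share of cells with each cfap transcript (rows, by symbol) in each of 10 cell clusters (columns), in percent of the cells of the cluster. Values are the authors' and have no replicates, and blank fields were not listed. Shares are higher in clusters 7 to 10 than in clusters 2 to 4, where most are under 10%, apart from transcripts such as cfap20 and cfap298.

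Among genes of the inner lining of the doublets, cfap126 (NM_001045418; Flattop, which in mouse also has a role at basal bodies) was found in 96.6%, 98.9%, 96.1% and 96.8% of cells of clusters 7, 8, 9 and 10, and in 9.7% to 18.3% of clusters 2 to 4. Shares this near to all cells cannot show whether the level per cell differed among these clusters. Transcripts of cfap144 were in 93.5%, 98.0%, 91.9% and 88.4% of clusters 7 to 10 and in 3.0%, 2.0% and 1.3% of clusters 2 to 4. Those of cfap45 were in 76.5%, 81.2%, 62.2% and 63.2%, against 2.8%, 2.4% and 0.8%. The doublet proteins cfap52 and cfap53, the latter known in zebrafish for its part in left-right patterning, were listed in 38.5% and 61.2% of cells of cluster 6 as well. Transcripts of cfap210 (XM_002663426) were in 0.3% of cells of cluster 1 and 0.1% of cluster 3, and in 58.5% of cluster 8. Of 25 cfap rows listed for clusters 2, 3 and 4, 18 were under 10% in each of them.

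Combined over clusters, the share of cells with a cfap transcript in clusters 7 to 10 was 1.70 to 18.4 times that in clusters 1 to 6, with a median ratio of 4.35 over 23 rows. The ratio was calculated only for rows listed for each of clusters 7 to 10. This left out cfap97, cfap298, cfap300, the NM form of cfap20 and another row of cfap210. Over all 1,491 rows with such a ratio the median was 0.238. The ratio exceeded 2 in 22 of 23 cfap rows, and in 26.1% of all rows. Among these 23 cfap rows the highest ratio was that of cfap68, a protein of the doublet lining. The lowest was that of cfap36, which in human cells binds the small GTPase ARL3. Transcripts of cfap36 were in 51.7% of cells of cluster 1, 18.2% of cluster 2 and 26.6% of cluster 3, and in 58.0% of cluster 7. The XM form of cfap20, which encodes a protein of the inner junction of the doublets, was in 67.6% of cells of cluster 1 and in 32.5%, 33.7% and 32.5% of clusters 2 to 4. For cfap298 (kurly in zebrafish, needed for dynein arm assembly) the shares were 48.6% in cluster 1, 80.7% in cluster 6, 86.9% in cluster 7 and 44.7% in cluster 9. The XM form of cfap20 and cfap298 were found in 32.5% or more of the cells of each of clusters 2 to 4, as no other cfap row was. How far the low shares in clusters 2 to 4 come from RNA free in the suspension was not tested.

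Within clusters 7 to 10, cfap transcripts differed in how their shares ran from cluster 7 to cluster 10. Among 23 rows listed in all of these sheets, 18 had a lower share in cluster 10 than in cluster 7 and 5 had a higher one (cfap20 XM, cfap58, cfap126, cfap184 and cfap299), where 90.9% of all 1,491 such rows were lower. The median ratio of cluster 10 to cluster 7 was 0.771 over the cfap rows and 0.394 over the 1,470 rows with a share above 0 in cluster 7. Transcripts of cfap73, an inner dynein arm adaptor known from Chlamydomonas, had the lowest ratio, with 42.5%, 26.7%, 16.5% and 15.9% of cells in clusters 7, 8, 9 and 10. The shares of cfap92 were 85.6%, 83.2%, 50.2% and 37.3%. Those of cfap43, a dynein tether whose loss in human and mouse shortens sperm tails, were 51.1%, 48.9%, 23.3% and 22.2%. The shares of cfap299 were 97.4%, 98.9%, 97.6% and 99.2%, which are too near to all cells to show a lower level, and those of cfap58, needed for sperm tails in mouse, were 70.3%, 90.1%, 74.4% and 75.1%. The shares carry no error, as the sheets give no values per fish.

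Every cfap row was lower in TP than in CP. In pseudo bulk-seq 1,331 of 6,847 rows (19.4%) were called lower in TCDD-exposed testes and 595 (8.69%) higher, and 23 of 23 cfap rows were called lower. Their log2 fold changes ran from −4.04 to −1.24 with a median of −2.92, while the median of all rows was 0.03. Adjusted p-values of the cfap rows were 0.00166 to 0.0136 by edgeR's quasi-likelihood test. In all 23 rows the highest TP library was below the lowest CP library, as in 32.8% of all rows, while 32.2% of all rows had every TP library above CP. By size of the decrease, 19 of the 23 rows were among the lowest 5% of all log2 fold changes and 22 among the lowest 10%, the exception being cfap36. In tissue suspensions, fewer cells of a type and less RNA per cell cannot be told apart in summed counts.

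**Figure D2:**
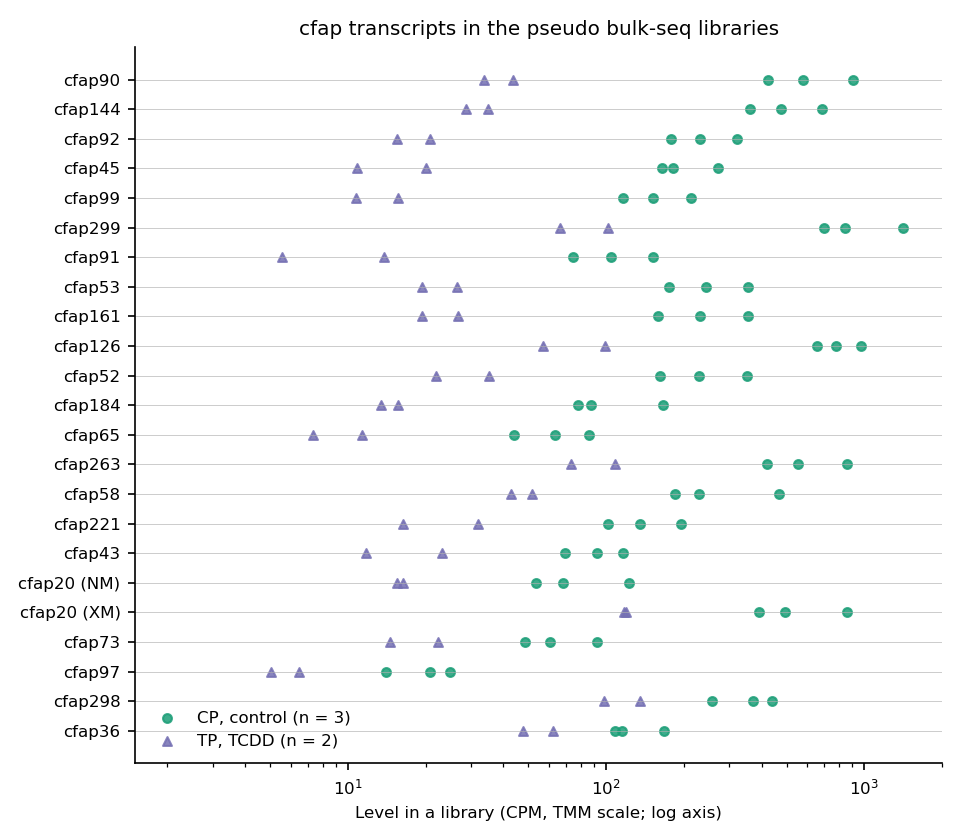
Level of each cfap transcript in the 3 CP and 2 TP libraries, in CPM on a log axis, with 1 point per library and rows ordered by log2 fold change. In every row both TP libraries (triangles) lie to the left of all CP libraries (circles), with the narrowest gap for cfap36.

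The 2 largest decreases were those of cfap90 and cfap144, which encode proteins of the doublet lining. Levels of cfap90 (XM_002665531) were 904, 423 and 578 CPM in the CP libraries and 43.8 and 33.6 CPM in the TP libraries, a log2 fold change of −4.04 (SE 0.379, adjusted p = 0.00166 by edgeR). For cfap144 (NM_001326574) they were 689, 359 and 475 CPM in CP and 34.8 and 28.6 CPM in TP (−4.00, SE 0.333, adjusted p = 0.00166 by edgeR). In both genes the lowest CP library was more than 9 times the highest TP library, with ratios of 9.66 and 10.3. The doublet protein cfap45 (NM_001082996) was at 272, 164 and 182 CPM in CP and at 20.1 and 10.8 CPM in TP (−3.75, SE 0.373). Its TP libraries differed from each other more than those of cfap144, yet both were far below CP.

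Levels of cfap126 were 968, 653 and 779 CPM in CP and 99.0 and 57.1 CPM in TP, with a log2 fold change of −3.36 (SE 0.313, adjusted p = 0.00166 by edgeR). For cfap53 (NM_001045130) the CP libraries had 356, 175 and 243 CPM and the TP libraries 26.4 and 19.4 CPM (−3.50, SE 0.358). Libraries of cfap161 (NM_001017774) had 354, 159 and 231 CPM in CP and 26.7 and 19.4 CPM in TP (−3.43, SE 0.389). The groups were well apart in each of these doublet genes. Both forms of cfap20 decreased to a lesser degree: the XM form was at 860, 392 and 493 CPM in CP and 119 and 118 CPM in TP (−2.30, SE 0.348), and the NM form at 123, 53.6 and 68.3 CPM and 15.4 and 16.4 CPM (−2.35, SE 0.385). Over all 9 rows of doublet lining genes the median was −3.43 and 9 of 9 were called lower.

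The 3 rows of central apparatus genes were called lower with a median of −2.79. The largest decrease among them was that of cfap99 (XM_003200370), with 213, 116 and 152 CPM in CP and 15.6 and 10.7 CPM in TP (−3.61, SE 0.346). Next came cfap65, whose loss in human disturbs the sperm tail, with 85.7, 44.1 and 63.6 CPM in CP and 11.3 and 7.31 CPM in TP (−2.79, SE 0.366). The radial spoke base gene cfap91 (XM_001333308) was at 152, 74.1 and 105 CPM in CP and 13.8 and 5.54 CPM in TP (−3.53, SE 0.483, adjusted p = 0.00303 by edgeR). It had the largest SE of the family, and its TP libraries differed by more than a factor of 2. The inner dynein arm genes cfap43 and cfap73 were lower by −2.42 (SE 0.365) and −1.87 (SE 0.344) on the log2 scale.

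Of the remaining members, cfap299 (NM_001115124) had 1415, 700 and 846 CPM in CP and 102 and 66.1 CPM in TP (−3.55, SE 0.385, adjusted p = 0.00181 by edgeR), and cfap92 (XM_002663790) had 322, 178 and 230 CPM and 20.8 and 15.5 CPM (−3.75, SE 0.326). Both were among the 10 largest decreases. The smallest were those of cfap298, with 440, 258 and 371 CPM in CP and 135 and 98.3 CPM in TP (−1.61, SE 0.273, adjusted p = 0.00679 by edgeR), and of cfap36, with 167, 108 and 115 CPM in CP and 47.5 and 62.1 CPM in TP (−1.24, SE 0.256, adjusted p = 0.0136 by edgeR). For cfap36, the lowest CP library was 1.74 times the highest TP library. The control libraries were not alike: CP replicate 1 was the highest of the 3 in 23 of 23 cfap rows (39.8% of all rows), and CP replicate 2 was the lowest in 22 of 23 (40.7%). Without CP replicate 1 the median became −2.54, and the 23 rows were still called.

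The members called depended on the TP libraries, and calls fell over all rows as well as in this family when 1 was left out. Without TP replicate 2 the call was lost for cfap36, cfap73, cfap97, cfap298 and cfap58. Their log2 fold changes were then −1.42, −1.56, −1.57, −1.37 and −2.47. It was also lost for both cfap20 rows, NM (−2.36) and XM (−2.26). Without TP replicate 1 it was lost for cfap36 (−1.05) and the NM form of cfap20 (−2.29). Without each library in turn, the direction was the same in each row. A single TP library was assumed to vary like the other group.

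Rows with a higher share of cells in clusters 7 to 10 relative to clusters 1 to 6 tended to have larger decreases. The log2 ratio of shares (clusters 7 to 10 over 1 to 6) was set against the log2 fold change of TP over CP. Across 20 cfap rows with both values the correlation was −0.79 (Pearson) and −0.78 (Spearman), and −0.71 (Pearson) without cfap36. Members without a ratio, such as cfap298, are not included. Across all 1,448 rows with both values the correlation was −0.88 (Pearson) and −0.89 (Spearman). The points share their cells, as the sheets and the summed counts come from the same 10x libraries, and the rows are not independent replicates. Rows with similar ratios still differed: cfap126 had a ratio of 3.46 and a log2 fold change of −3.36, cfap221 a ratio of 3.50 and −2.58. The spermatid and sperm markers izumo1 and ropn1l were both called lower, at −4.21 and −3.61, with summed levels of 655 to 1355 CPM in CP and 62.7 to 74.5 CPM in TP, for 2 of 9 listed markers found. Of the spermatocyte markers 4 of 6 found were called lower, with summed levels of 4161 to 6105 CPM in CP and 1888 to 2318 CPM in TP. Much of this sum was sycp1, with 3297, 1990 and 2320 CPM in CP and 338 and 167 CPM in TP, whose transcripts were in 99.0% or more of cells of clusters 7, 8 and 9 as well. Without it the sums were 2170 to 2952 CPM in CP and 1722 to 1980 CPM in TP. Much of what remained was sycp3, with 1564, 1241 and 1704 CPM in CP and 1321 and 1211 CPM in TP. Of these markers sycp3 and rec8b were not called (both −0.25), while dmc1 (−1.35), spo11 (−0.91) and sycp2 (−0.89) were called lower. The part of these cell types in the cfap decrease was not tested.

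**Figure D3:**
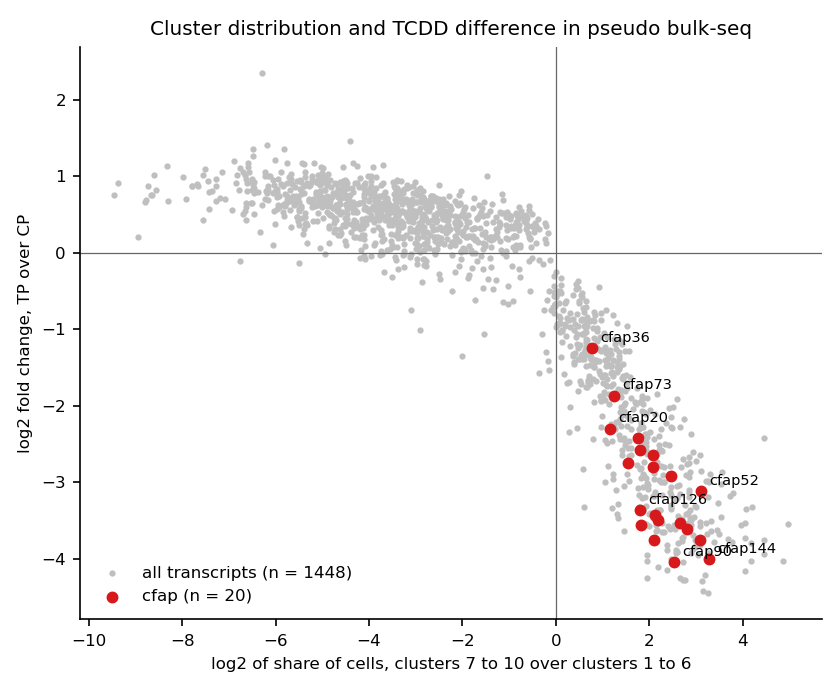
Log2 ratio of the share of cells with a transcript in clusters 7 to 10 over clusters 1 to 6 (x) against the log2 fold change of TP over CP in pseudo bulk-seq (y), for 1,448 rows in grey and 20 cfap rows in red. Cfap rows lie at the right and low end of the cloud of all rows, from cfap36 (ratio 1.70, −1.24) to cfap144 (ratio 9.66, −4.00).

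By bulk-seq of the same exposure, no cfap row was called. With edgeR's quasi-likelihood test 0 of 12,939 rows were called in either direction (0% higher and 0% lower), DESeq2 called 9 rows and edgeR's likelihood ratio test 15, with 0 cfap rows in each. At an unadjusted p under 0.05, 0 of 22 cfap rows passed, where 4.44% of all rows were lower and 4.44% higher. Log2 fold changes of TB over CB were below 0 in 14 cfap rows and above 0 in 8, from −0.92 to 0.61, with a median of −0.35 against −0.05 over all rows. All 22 of the 95% intervals included 0, and 14 reached a log2 value of −1 or lower, so for these 14 a decrease of that size was within the interval.

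Levels of cfap126 were 1185, 344 and 1126 CPM in CB and 548 and 852 CPM in TB. Both TB libraries lay between CB library 2 and the other CB libraries, and the log2 fold change was −0.34 (SE 0.493). For cfap299 the CB libraries had 647, 249 and 587 CPM and the TB libraries 285 and 402 CPM (−0.53, SE 0.422), again with TB inside the range of CB. The NM form of cfap20 was at 493, 314 and 571 CPM in CB and 277 and 468 CPM in TB (−0.30, SE 0.361). The doublet gene cfap77 was spread widely in both groups, with 470, 181 and 719 CPM in CB and 199 and 1195 CPM in TB (0.61, SE 0.707). Its TB libraries lay near the lowest CB library and above the highest. In cfap45 the groups did not overlap, with 849, 799 and 826 CPM in CB and 911 and 938 CPM in TB, but the difference was small (0.16, SE 0.247, 95% interval −0.39 to 0.72). Every TB library was above every CB library in 13.8% of all rows, and cfap45 was the only such cfap row. The reverse held for 0 cfap rows and for 16.1% of all rows. Summed levels of 4 spermatid and sperm markers were 315 to 734 CPM in CB and 336 to 595 CPM in TB, and so overlapped. All 4 had log2 fold changes below 0, with a median of −0.48 against −0.05 over all rows, and 0 were called.

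**Figure D4:**
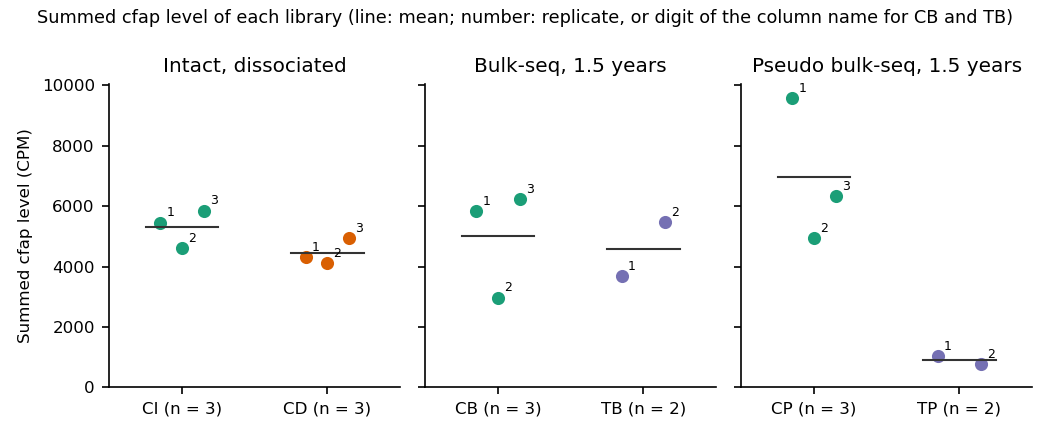
Summed level of all cfap rows of a table in each library, in CPM on the TMM scale, with 1 point per library, its replicate number (for CB and TB the digit of the column name) and a line at the group mean; each panel is 1 table, and levels are comparable only within a panel. TB libraries fall within the range of CB, while both TP libraries are far below every CP library.

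CB library 2 stood apart for this family. It was the lowest CB library in 19 of 22 cfap rows (37.5% of all rows). In 13 of the 22 it was the lowest of all 5 libraries, for which the share over all rows was not computed. Summed over the cfap rows of the table, levels were 5839, 2976 and 6229 CPM in CB and 3689 and 5463 CPM in TB. Both TB libraries were thus above CB library 2 and below the other 2. Leaving out this library moved the median log2 fold change from −0.35 to −0.52, and still 0 cfap rows were called. Without TB library 1 it moved to −0.02. In the pseudo bulk-seq table the sums were 9590, 4947 and 6327 CPM in CP and 1026 and 767 CPM in TP, so that the lowest CP library had more than 4 times the level of the highest TP library.

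The TCDD effect on cfap transcripts differed between the assays. In 1 fit of CB, TB, CP and TP over 4,388 shared rows, which treated the libraries as independent although suspensions were divided between the assays, the difference of the effects (pseudo bulk-seq minus bulk-seq) was called lower in 270 rows (6.15%) and higher in 37 (0.843%). Among 13 shared cfap rows 11 were called lower and 0 higher, with a median difference of −2.77 against 0.16 over all rows. Differences ran from −4.00 for cfap45 (SE 0.424, adjusted p = 0.00372 by edgeR) to −1.27 for cfap298 (SE 0.457, adjusted p = 0.112 by edgeR). The other row that was not called was cfap36 (−1.44, SE 0.451, adjusted p = 0.0794), and both of these rows were called by DESeq2 (adjusted p = 0.0183 for cfap36 and 0.0389 for cfap298). For cfap126 the difference was −3.14 (SE 0.631, adjusted p = 0.0152 by edgeR). In 13 of 13 shared rows the log2 fold change of TP over CP lay below the whole 95% interval of TB over CB. This count leaves out the interval of TP over CP, and its share over all shared rows was not computed.

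On the common scale of this fit, cfap45 was at 1138, 1180 and 1080 CPM in CB and 1453 and 1502 CPM in TB, but at 315, 194 and 214 CPM in CP and 25.7 and 13.8 CPM in TP. The TCDD libraries were thus slightly above the controls by bulk-seq and far below them by pseudo bulk-seq. For cfap53 the bulk-seq libraries had 515, 245 and 548 CPM in CB and 477 and 535 CPM in TB, and the pseudo bulk-seq libraries 412, 207 and 286 CPM in CP and 33.8 and 24.7 CPM in TP (difference −3.58, SE 0.545). Summed over the 13 shared rows, levels were 6593, 3810 and 6565 CPM in CB, 5136 and 6229 CPM in TB, 7671, 4102 and 5191 CPM in CP, and 920 and 674 CPM in TP. The sums of the CB, TB and CP libraries overlapped, and those of both TP libraries were far below. The number of calls rested on the TP libraries: without TP replicate 1, 6 of 13 rows were called (81 of all rows), and without TP replicate 2, 1 of 13 (1 of all rows), which was cfap45.

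**Figure D5:**
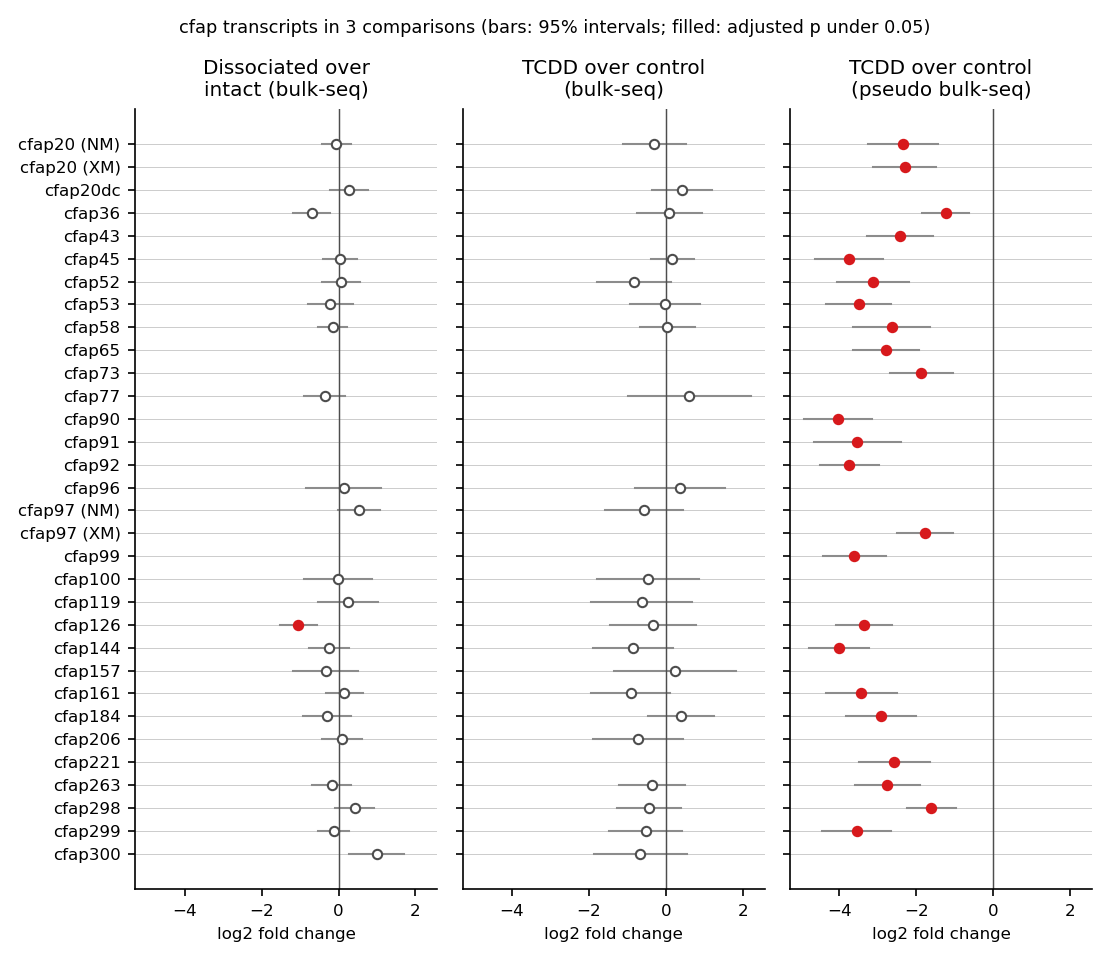
Log2 fold changes of each cfap row (y) with 95% intervals (bars) for CD over CI, TB over CB and TP over CP; filled points were called (adjusted p under 0.05), and a missing point means that the accession is not in that table. Called points are cfap126 in the first panel, none in the second and all 23 rows in the third.

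In control suspensions, some cfap levels differed between the assays, and calls were common over all rows too. A call in either direction was thus not particular to this family. Of all 4,388 rows, 1,205 (27.5%) were higher in CP than in CB and 1,332 (30.4%) were lower. Among the 13 cfap rows, 6 were called higher in CP (cfap36, cfap144, cfap161, cfap184, cfap263 and cfap298) and 2 lower (cfap45 and the NM form of cfap20), and the median was 0.78. At the thresholds of the paper (unadjusted p under 0.01 and at least a doubling or halving), 3 cfap rows were higher and 2 lower, beside 18.8% and 21.8% of all rows. The largest increase was that of cfap161, with 135, 52.7 and 130 CPM in CB and 410, 188 and 272 CPM in CP (1.45, SE 0.373, adjusted p = 0.00609 by edgeR). The decrease of cfap45, by −2.23 (SE 0.264, adjusted p = 3.21e-05 by edgeR), was beyond the spread of either group. For cfap20 the NM accession was at 661, 464 and 747 CPM in CB and 142, 63.2 and 80.5 CPM in CP (−2.72, SE 0.343), but in pseudo bulk-seq this gene's counts are split between 2 accessions. With accessions added by gene symbol, cfap20 was at 629, 442 and 707 CPM in CB and 1084, 506 and 627 CPM in CP, a log2 fold change of 0.32 (SE 0.311, adjusted p = 0.397 by edgeR). Its difference of the TCDD effects was −2.07 (SE 0.499, adjusted p = 0.0332 by edgeR) on that basis. Matched by symbol alone, cfap97 was at 57.9, 27.2 and 58.5 CPM in CB and 27.4, 15.9 and 23.2 CPM in CP, and it was called lower in CP (−1.12, SE 0.347, adjusted p = 0.0156 by edgeR). This gene had only an NM accession in bulk-seq and only an XM accession in pseudo bulk-seq, so different transcript records are compared. Without CP replicate 1, 4 of 13 rows were called. Chemistry, alignment, counting and cells lost between the assays cannot be told apart in this comparison.

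Between dissociated and intact testes 1 cfap transcript was called by the threshold used, which is too few to set against the shares over all rows. In CD against CI, 250 of 12,773 rows (1.96%) were lower and 33 (0.258%) were higher after dissociation, and of 22 cfap rows 1 was lower and 0 were higher. Levels of cfap126 were 478, 660 and 546 CPM in CD and 903, 1112 and 1454 CPM in CI, a log2 fold change of −1.04 (SE 0.214, 95% interval −1.51 to −0.57, adjusted p = 0.0299 by edgeR). Every CD library was below every CI library. The call was lost when CD replicate 1, 2 or 3 or CI replicate 3 was left out, with adjusted p-values of 0.165, 0.0724, 0.162 and 0.0994 and log2 fold changes from −1.18 to −0.84.

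The other 21 rows were not called, 12 of the 22 were negative and 10 positive, and the median was −0.04 beside 0.01 over all rows. For 15 rows the 95% interval lay within −1 and 1. The next lowest row was cfap36, with 73.8, 100 and 67.2 CPM in CD and 136, 145 and 109 CPM in CI (−0.69, SE 0.218, adjusted p = 0.144 by edgeR). The highest was cfap300, a dynein arm assembly factor, with 31.9, 18.2 and 20.8 CPM in CD and 12.3, 7.95 and 15.2 CPM in CI (0.99, SE 0.325, adjusted p = 0.159 by edgeR). Both of these had groups that did not overlap. With cfap126, CD was wholly below CI in 2 cfap rows (13.1% of all rows) and wholly above it in 1 (13.3%).

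Genes with the most reads in bulk-seq apart from cfap126 were not called in CD against CI, with log2 fold changes of −0.36 to 0.03. The libraries of cfap45 had 646, 540 and 855 CPM in CD and 703, 611 and 684 CPM in CI (0.03, SE 0.197), and those of cfap299 had 502, 478 and 671 CPM and 590, 616 and 598 CPM (−0.13, SE 0.182). The groups overlapped in both. For cfap20 they were 491, 439 and 506 CPM in CD and 550, 445 and 501 CPM in CI (−0.06, SE 0.169), and for cfap77 they were 501, 347 and 342 CPM and 650, 363 and 510 CPM (−0.36, SE 0.243). Summed cfap levels were 4312, 4110 and 4944 CPM in CD and 5456, 4610 and 5858 CPM in CI, with 1 CD library above the lowest CI library. In the same libraries the summed levels of 6 Sertoli cell markers were 214 to 241 CPM in CD and 1396 to 2157 CPM in CI, and 4 of 6 Leydig cell markers found summed to 29.3 to 212 CPM and 3521 to 3974 CPM. Of the 6 Sertoli cell markers 3 were called lower and 3 were not called. Most of the CI sum was gsdf, at 1173, 1807 and 1283 CPM in CI and 17.0, 12.3 and 8.16 CPM in CD. Most of the CD sum was dmrt1, at 217, 208 and 202 CPM in CD and 154, 289 and 223 CPM in CI, which was not called (−0.09). The part of these lower marker levels in the cfap values was not tested. The sums of 4 spermatid and sperm markers overlapped, at 518 to 750 CPM in CD and 574 to 783 CPM in CI.

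Other genes of the motile axoneme were listed for comparison: dynein arms and their docking, radial spokes, the nexin-dynein regulatory complex, the central apparatus, other doublet lining proteins and dynein assembly factors. Of 107 such genes listed, 51 were found in pseudo bulk-seq (ropn1l, also counted as a sperm marker above, is among them), and 49 were called lower in TP, 0 higher and 2 not called, with a median log2 fold change of −2.90. This median was close to the −2.92 of the cfap rows. The difference of the TCDD effects was called lower in 31 of 36 of these genes, with a median of −2.99. In TB against CB, 0 of 55 were called and the median was −0.13. The transcription factor foxj1a, which switches on genes of motile cilia, had 222, 98.3 and 159 CPM in CP and 36.6 and 20.3 CPM in TP (−2.49, SE 0.418), so its groups did not overlap. The other gene found of 10 listed ciliary transcription factors was rfx7a, with 21.7, 38.4 and 32.1 CPM in CP and 74.3 and 65.1 CPM in TP, and it was called higher (1.16, SE 0.255, adjusted p = 0.017 by edgeR). Its transcripts were in 28.6% and 31.0% of cells of clusters 2 and 3 and in 0.2% of cluster 9. Those of foxj1a were found in 60.1%, 72.2%, 53.7% and 46.5% of cells of clusters 7 to 10 and in 4.4% to 8.8% of clusters 2 to 4. Foxj1a serves as well as a marker of multiciliated epithelium, of which 1 of 6 listed markers was found in pseudo bulk-seq.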

How the data were processed

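Raw counts per RefSeq accession were deposited by the authors. For bulk-seq they come from 3′ mRNA libraries run through BlueBee against GRCz11, with a counter not given in the sources used here. Pseudo bulk-seq counts were summed over cells after Cell Ranger (version 6.01 in the submitters' notes, which name GRCz11, while the paper names dR10). The deposited cluster sheets hold the fraction of cells with a transcript, which the authors computed with Seurat 4.0.4. The authors' own fold changes and p-values in these tables were not used. Symbols came from RefSeq of assembly GRCz12tu, for 97.6% of bulk-seq rows and 85.2% of pseudo bulk-seq rows, so further cfap rows may lie among unnamed rows. No coordinates or sequences are given.

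Low rows were removed with filterByExpr and library sizes adjusted by TMM. Groups were tested in R 4.3.3 with edgeR 4.0.16 (glmQLFit, robust, and glmQLFTest) and Benjamini-Hochberg adjustment. Fits were tested on simulated data. No per-sample column of the tables used was left out (0 columns). The alternatives were DESeq2 1.42.0, edgeR's likelihood ratio test, RLE scaling, no filter, the paper's thresholds (unadjusted p under 0.01 with at least a doubling or halving), a replicate block and leaving out each library. Scaling by library totals alone and adding accessions by gene symbol were chosen after seeing the data. Members, role groups and gene lists were chosen with earlier results of these data known. Named members were those called in a comparison (up to 10 by size in each direction), the 5 with the most reads in bulk-seq, cfap126 and those listed in a cluster sheet.

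CD and CI come from contralateral testes of the same fish by the paper's methods. Deviations of equally numbered libraries from their group means correlated at 0.26, 0.04 and −0.06. Digits in the columns of the CB and TB table match the label of no bulk-seq sample, so no block was fitted there, although the plan had one. The result of the wider axoneme list in CD against CI is not reported here.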

Additional observations from a re-analysis of the deposited data

Results flagged for a closer look

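The TCDD effect on 11 cfap rows differed between pseudo bulk-seq and bulk-seq by a test of the difference itself, in 1 edgeR fit of both assays. On the log2 scale, pseudo bulk-seq minus bulk-seq, the differences were −4.00 for cfap45, −3.58 for cfap53, −3.43 for cfap184, −3.27 for cfap144, −3.14 for cfap126, −3.14 for cfap299, −2.77 for cfap58, −2.63 for cfap161, −2.50 for cfap263, −2.40 for cfap52 and −2.15 for the NM form of cfap20. Each of these rests on 2 TCDD libraries of each assay, which by the study's methods come from the same suspensions. The cause of the difference was not tested. No group has 4 or more libraries, so single libraries were not screened for distance from their group.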

How the results depend on the processing

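In CD against CI, 1 cfap row was called under all 7 alternatives that keep all libraries, and leaving out libraries gave 0 to 1. The median of these rows was −0.04, and it turned to 0.075 with library totals alone and ran from −0.16 to 0.064 with libraries left out, positive without CD replicate 2 (0.064) and without CI replicate 3 (0.029). In TB against CB, 0 were called in all alternatives (0 to 0 when libraries were left out). Without TB library 1, 698 of all rows were called. In TP against CP, 22 or 23 were called with all libraries, and 16 to 23 with libraries left out. For the difference of the TCDD effects, 11 to 13 were called with all libraries, and 1 to 12 with 1 left out. In CP against CB, 5 were called at the paper's thresholds in place of 8, and leaving out libraries gave 4 to 8, with 4 without CP replicate 1. Among single cfap rows, 603 values came from alternatives that keep all libraries. In 0 of them did the sign change in a row called by the main test or by the alternative. Changes of sign in rows called by neither were not counted. Calls over all rows differed by more than 1.5 times: in CD against CI 283 by the main test, 792 by DESeq2, 675 by the likelihood ratio test and 612 at the paper's thresholds, in TP against CP 1,926 and 1,038 at the paper's thresholds, and for the difference 307, 633, 605 and 503. With the replicate block, 1 cfap row was called in CD against CI and 23 in TP against CP, as without it (367 and 2,479 of all rows). TP and CP share only numbers, with correlations of deviations of 0.26 and 0.42 at equal numbers and −0.42 to 0.21 at unequal ones. With 2 TP libraries, their deviations mirror each other. The paper states that the exposures were made as 3 independent experiments in successive blocks, which the labels do not name. No paired analysis was possible for comparisons with CB or TB because the digits in their columns' names match the label of no bulk-seq sample. The causes of these shifts were not tested. With 2 or 3 libraries a group, changes under a halving were often not detectable in TB against CB.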
